A study of Homo sapiens with 24 samples.

Results

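A group of 10 long non-coding RNA genes that carry small nucleolar RNAs (snoRNAs) in their introns was followed across 24 RNA sequencing libraries of HepG2, a human hepatocellular carcinoma cell line. They are GAS5, SNHG1, SNHG3, SNHG5, SNHG6, SNHG7, SNHG8, SNHG12, SNHG15 and ZFAS1, taken by symbol from the 26475 genes of the deposited count files. The 8 groups of 3 libraries were HepG2 cells treated with DMSO, 50 nM of ABBV-075, 50 nM of ABBV-744, 500 nM of ABBV-744, interferon gamma (IFNγ, written IFNg in the plots), and IFNγ together with each of the inhibitor treatments. ABBV-075 inhibits the bromodomain and extra-terminal (BET) proteins through both of their bromodomains, and ABBV-744 is selective for the second bromodomain. The study's methods give 12 h for ABBV-075 and name the DMSO samples together with treatments of 24 h, so ABBV-075 and DMSO may also differ in time. The time of the ABBV-744 treatments and the dose and time of IFNγ were not given in the sources used here. The groups share the cell line and the medium, MEM with 10% serum, and the study's methods describe the DMSO and ABBV-075 samples as independent triplicates. No source used here says this of the other groups or names separate cultures, so p-values measure only the spread between these samples, which may be technical. In bulk RNA, fewer cells with a transcript and less transcript per cell cannot be told apart.

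Most human snoRNAs are not transcribed on their own. They are cut from the introns of host genes after splicing, and then guide the chemical modification of ribosomal RNA: box C/D snoRNAs direct 2′-O-methylation and box H/ACA snoRNAs direct pseudouridylation. Some hosts encode ribosomal proteins or translation factors, while the hosts described here make no conserved protein, and their spliced RNAs are often degraded by nonsense-mediated decay when translation goes on. Many host genes start in a run of pyrimidines (a 5′ TOP start), a feature shared with ribosomal protein genes.

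Because transcription is what BET inhibitors act on, the start regions of the hosts are shown first. RefSeq promoter windows on GRCh38.p14 were found for 8 of the 10 genes, the exceptions being SNHG6 and SNHG15. Each line runs 5′ to 3′ on the strand of the gene from 45 bases before to 25 bases after the RefSeq start. The capitals mark the letters TATAA at 15 to 40 bases before the start and the longest unbroken run of at least 5 pyrimidines within 10 bases of it.
SNHG8, chr4:118278717-118278786, plus strand: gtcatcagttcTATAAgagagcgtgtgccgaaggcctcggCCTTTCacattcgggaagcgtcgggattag
SNHG12, chr1:28581849-28581918, minus strand: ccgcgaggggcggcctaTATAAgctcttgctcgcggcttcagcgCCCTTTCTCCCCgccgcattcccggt
SNHG7, chr9:136728160-136728229, minus strand: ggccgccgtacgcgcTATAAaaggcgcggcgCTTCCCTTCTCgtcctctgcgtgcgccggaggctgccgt
SNHG3, chr1:28505898-28505967, plus strand: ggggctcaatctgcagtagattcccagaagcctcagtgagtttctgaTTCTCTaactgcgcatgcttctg
ZFAS1, chr20:49278597-49278666, plus strand: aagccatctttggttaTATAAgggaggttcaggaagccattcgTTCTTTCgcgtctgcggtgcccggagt
SNHG1, chr11:62855861-62855930, minus strand: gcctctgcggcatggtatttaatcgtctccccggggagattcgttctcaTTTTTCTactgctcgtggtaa
SNHG5, chr6:85678709-85678778, minus strand: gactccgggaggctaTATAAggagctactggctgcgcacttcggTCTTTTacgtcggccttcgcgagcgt
GAS5, chr1:173869021-173869090, minus strand: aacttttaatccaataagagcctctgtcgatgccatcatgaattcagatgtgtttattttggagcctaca

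A pyrimidine run of at least 5 bases lay at the RefSeq start of 7 of the 8 genes, against 47.5% of 35116 promoters, and GAS5 was the exception. The letters TATAA lay 15 to 40 bases before the start of SNHG5, SNHG7, SNHG8, SNHG12 and ZFAS1, which is 5 of 8, against 3.91% of all promoters. Both patterns were chosen after the sequences had been seen, only the gene's own strand was read for them, and a match is a description of letters, not a site. The RefSeq start of GAS5 lies 163 bases upstream of the outermost GENCODE start, so the window may not begin where the counted transcripts begin, and the other distances ran from 0 bases for SNHG7 to 1259 bases for SNHG12. On either strand of the 300-base windows, the E-box CACGTG was found in SNHG7 alone (7.26% of all promoters), the STAT-type letters TTCNNNGAA in SNHG3 alone (7.66%), and the interferon-type letters GAAA, any 2 bases and GAAA in none of the 8 (3.57%). SNHG8, the gene on which most of the results turn, has the following window from 250 bases before to 50 bases after its start, with the same capitals.
SNHG8, chr4:118278512-118278811, plus strand: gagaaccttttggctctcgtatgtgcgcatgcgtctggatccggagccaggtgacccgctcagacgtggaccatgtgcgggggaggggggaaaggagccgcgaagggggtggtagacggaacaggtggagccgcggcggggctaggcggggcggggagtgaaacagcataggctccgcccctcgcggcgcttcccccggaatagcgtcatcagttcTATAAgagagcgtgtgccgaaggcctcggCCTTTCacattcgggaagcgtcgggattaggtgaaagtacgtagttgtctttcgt

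Reads assigned to genes on the sense strand ranged from 2978982 to 4304103 per library, out of 23037861 to 28925049 reads. Between 56.0% and 69.4% of the reads mapped to several places and were not counted. The libraries of 50 nM of ABBV-744 and of IFNγ with 50 nM of ABBV-744 stood apart from each other: multimapping took 66.15 to 69.38% against 57.55 to 59.55% of reads, and the 10 most abundant genes took 27.91 to 32.36% against 22.74 to 24.28% of the counts. All 9 hepatocyte markers were detected. Of 9 markers of blood, endothelial and fibroblast cells, PTPRC, CD3E, COL1A2 and COL3A1 were at 0 in every library, and COL1A1, CD79A, PECAM1 and VWF did not pass the filter on low counts. CD14 reached 5.96 CPM at most, in an IFNγ library, and was called lower with ABBV-075 (-2.30) and 50 nM of ABBV-744 (-2.47) added to IFNγ. As a check of the treatments, HEXIM1, a gene that BET inhibitors are known to raise, rose with 50 nM of ABBV-075 by a log2 fold change of 1.41 and with 500 nM of ABBV-744 by 0.74, and was at 0.29 without a call at 50 nM of ABBV-744. The interferon target IRF1 rose by 4.26 with IFNγ.

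Of the 10 host genes, 9 were expressed in every library. SNHG15, on chromosome 7 at 44983019-44986961 of GRCh38, had 0 counts in 23 of 24 libraries and 1 count in the other, and was not tested. A count of 0 allows up to 3 counts, which is 1.01 CPM (CPM is a count scaled to a common library size) in the smallest library, for counting error only, and the counting annotation is not given, so whether it covers SNHG15 in full is not known. Per kilobase of annotated exon, with all transcripts of a gene joined, the DMSO level ran from SNHG1 at 21.1 ± 1.27 CPM per kb (SD, n = 3), through SNHG3 at 13.9 ± 1.59, GAS5 at 13.0 ± 0.545, SNHG8 at 10.5 ± 0.505, ZFAS1 at 9.73 ± 0.408, SNHG6 at 7.68 ± 0.914, SNHG12 at 6.08 ± 0.166 and SNHG7 at 5.68 ± 1.06, to SNHG5 at 3.62 ± 0.161. The neighbours SNHG3 and GAS5, SNHG8 and ZFAS1, and SNHG12 and SNHG7 in this order were closer than the sum of their SDs. With the longest transcript in place of all exons, the order changed, and ZFAS1 came to 17.9 CPM per kb, above SNHG8 at 11.2. SNHG1 and SNHG3 were then close, at 22.3 and 21.8. For SNHG1 and SNHG8 the joined exons cover the whole gene, 3976 and 6614 bases, and the longest transcripts are 3771 and 6166 bases. Both lengths may therefore be longer than the RNA that was counted, and the order of the genes depends on the annotation.

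**Figure D1:**
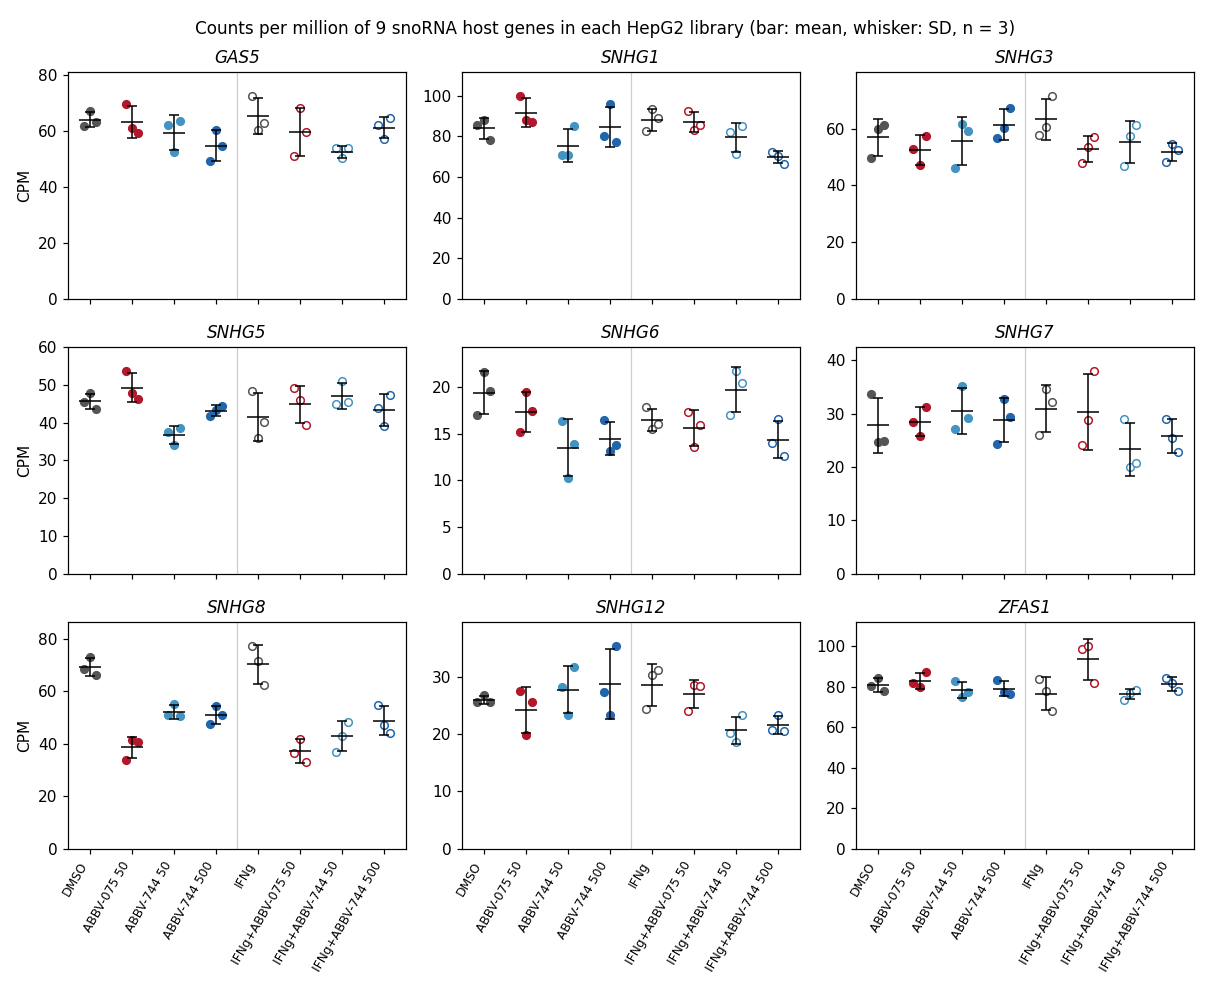
CPM of the 9 detected host genes in each of the 24 libraries, grouped by treatment along the x axis with the inhibitor dose in nM. Points are libraries, the horizontal mark is the mean of 3 and the whisker the SD. SNHG8 stands lower in all 18 inhibitor-treated libraries, at 32.9 to 55.2 CPM, than in the DMSO and IFNγ libraries, at 62.2 to 77.2 CPM, while the other genes overlap in most groups.

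Each inhibitor group was compared with its control (DMSO, or IFNγ where IFNγ was present), and calls were made at an adjusted p of at most 0.05 over all genes tested. With 50 nM of ABBV-075, 1 of the 9 tested host genes was called, SNHG8, and it fell, while 39.3% of all tested genes were called in either direction and 19.6% were called lower. SNHG8 was again the gene called with 50 nM of ABBV-744, where 18.9% of all genes were called (10.1% lower), and with 500 nM of ABBV-744, where the share was 15.3% (7.8% lower). Added to IFNγ, 50 nM of ABBV-075 lowered SNHG8 and raised ZFAS1, 2 of 9 against a background of 56.6% (28.4% lower and 28.2% higher). With 50 nM of ABBV-744 added to IFNγ, GAS5, SNHG7, SNHG8 and SNHG12 fell, 4 of 9 against 51.7% (24.3% lower), and with 500 nM SNHG1, SNHG3, SNHG8 and SNHG12 fell, 4 of 9 against 45.7% (22.8% lower). These shares move with the libraries used: without DMSO replicate 2 the genes called fell from 2102 to 708 with 50 nM and from 1700 to 793 with 500 nM of ABBV-744, and with ABBV-075 the 4424 calls became 2950 to 5995 when a library was left out. IFNγ alone changed none of the 9, 0 of them also at an unadjusted p under 0.05 in edgeR and 0 called by DESeq2, where 3.46% of all genes were called.

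The median absolute log2 fold change of the 9 genes was 0.11 against 0.40 over all genes with ABBV-075, 0.14 against 0.25 with 50 nM of ABBV-744, and 0.11 against 0.21 with 500 nM. With IFNγ present the medians were 0.10 against 0.45, 0.26 against 0.39 and 0.29 against 0.36 in the same order, and with IFNγ alone they were 0.13 against 0.14. No host gene reached the absolute log2 fold change of 1.5 that the study used as a cutoff. Of all genes, 4.28% were called past it with ABBV-075, 0.279% and 0.342% with 50 and 500 nM of ABBV-744, and 0.847% with IFNγ. With IFNγ present the shares were 6.17% for ABBV-075, 2.3% for 50 nM and 2.11% for 500 nM of ABBV-744. The comparisons share their DMSO or IFNγ libraries, so they are set side by side and are not independent of each other.

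**Figure D2:**
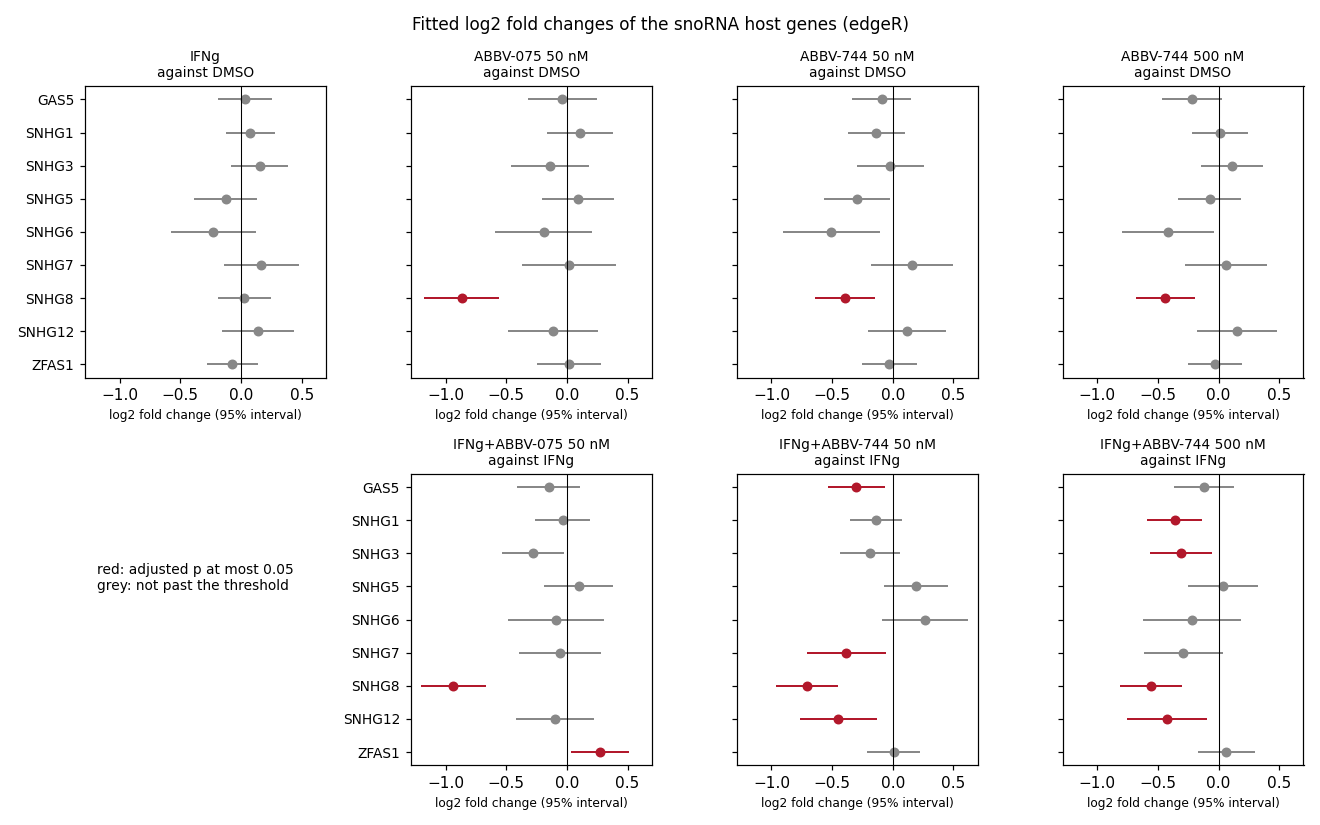
Log2 fold changes of the 9 tested host genes (points) with 95% intervals (lines) in 7 comparisons, from edgeR. Red marks an adjusted p of at most 0.05. SNHG8 is red and below 0 in all 6 inhibitor comparisons, from -0.39 to -0.94, and at 0.02 with IFNγ alone.

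SNHG8, on chromosome 4 at 118278703-118285316, hosts the box H/ACA snoRNA SNORA24 and was the gene called in every inhibitor comparison. With DMSO its level was 68.6, 72.9 and 66.4 CPM, and with 50 nM of ABBV-075 it was 33.9, 41.3 and 40.6 CPM. All 3 treated libraries lay far below all 3 controls, a log2 fold change of -0.87 (SE 0.138, 95% interval -1.17 to -0.57, edgeR adjusted p = 0.000528). In that comparison 9.09% of the tested genes had a lower fold change than SNHG8.

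At 50 nM of ABBV-744 SNHG8 measured 50.8, 55.2 and 50.4 CPM. These libraries lay between the other 2 groups without touching either, at -0.39 from DMSO (95% interval -0.63 to -0.16, edgeR adjusted p = 0.0193). This call was lost without ABBV-744 50 nM replicate 3 (-0.37, adjusted p = 0.0679), DMSO replicate 2 (-0.35, 0.114) or DMSO replicate 3 (-0.42, 0.0553). At 500 nM of ABBV-744 the values were 47.6, 54.5 and 50.9 CPM, again below every control library, at -0.44 (-0.67 to -0.20, adjusted p = 0.00907), and the call was lost without DMSO replicate 2 (-0.40, 0.0741).

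With IFNγ alone SNHG8 stood at 77.2, 71.4 and 62.2 CPM, which spans the DMSO libraries, with a log2 fold change of 0.02 and an interval of -0.19 to 0.24. Adding 50 nM of ABBV-075 gave 36.5, 41.9 and 32.9 CPM. The lowest IFNγ library was well above the highest of these, and the log2 fold change was -0.94 (-1.20 to -0.67, adjusted p = 1.03e-07). Adding ABBV-744 gave 37.0, 42.9 and 48.4 CPM at 50 nM and 54.8, 47.0 and 44.2 CPM at 500 nM. Neither dose overlapped the IFNγ libraries, with -0.71 (-0.96 to -0.46, adjusted p = 9.51e-06) and -0.56 (-0.81 to -0.31, adjusted p = 0.000388). None of these 3 calls, nor that of ABBV-075 without IFNγ, was lost when any one library was left out.

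Relative to its family, SNHG8 made up 14.6 ± 0.193% (SD, n = 3) of the summed counts of the host genes with DMSO and 8.63 ± 1.17% with ABBV-075. The share was 12.2 ± 1.00% at 50 nM and 11.4 ± 0.353% at 500 nM of ABBV-744, 14.6 ± 1.32% with IFNγ, and 8.26 ± 0.770%, 10.2 ± 0.983% and 11.6 ± 1.00% with IFNγ and ABBV-075, ABBV-744 at 50 nM and ABBV-744 at 500 nM. The highest inhibitor share without IFNγ was 13.2%, below the lowest DMSO share of 14.4%, and the highest with IFNγ was 12.8%, below the lowest IFNγ share of 13.1%. The sum of the other genes ran from 362.4 to 429.0 CPM over all libraries. It was 408.5 to 413.6 CPM with IFNγ and lower, without overlap, with ABBV-744 added. There it was 367.5 to 388.8 CPM at 50 nM and 364.7 to 375.0 CPM at 500 nM. With ABBV-075, alone or added to IFNγ, and with either dose of ABBV-744 alone, the sum overlapped that of the control.

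**Figure D3:**
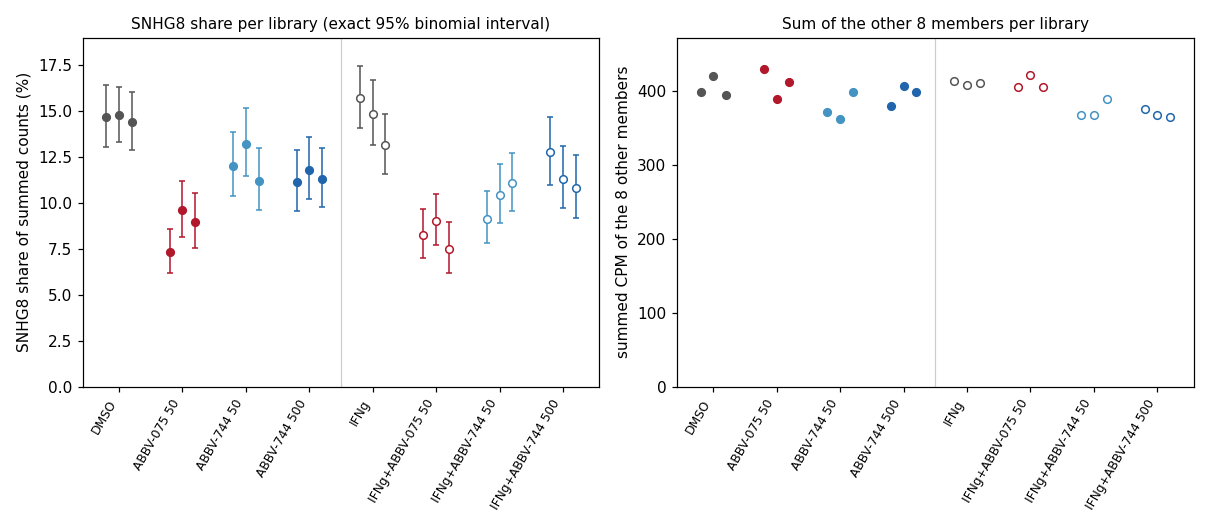
Left, share of the summed counts of the host genes that belongs to SNHG8 in each library, in percent, with exact 95% binomial intervals that cover counting error only. Right, summed CPM of the other 8 detected genes in each library. The share is 14.6% on average with DMSO and with IFNγ and falls to 8.63% and 8.26% with ABBV-075. The sum of the other genes runs from 362.4 to 429.0 CPM, and is lower with ABBV-744 added to IFNγ, at 364.7 to 388.8 CPM, than with IFNγ, at 408.5 to 413.6 CPM.

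SNHG12, on chromosome 1 at 28578538-28583132, hosts mostly H/ACA snoRNAs (SNORA16A, SNORA44, SNORA61) together with SNORD99. Its level was 24.4, 30.2 and 31.1 CPM with IFNγ, 20.2, 18.6 and 23.2 CPM with 50 nM of ABBV-744 added, and 20.7, 23.4 and 20.6 CPM with 500 nM added. Both inhibitor groups lay below every IFNγ library, with log2 fold changes of -0.45 (-0.76 to -0.14, edgeR adjusted p = 0.0129) and -0.43 (-0.75 to -0.10, adjusted p = 0.0289). Without IFNγ the same doses gave 28.2, 23.4 and 31.7 CPM and 27.3, 23.4 and 35.4 CPM, which span the DMSO libraries at 25.5, 26.8 and 25.5 CPM. The calls are sensitive: at 50 nM the adjusted p was 0.0537 without IFNγ+ABBV-744 50 nM replicate 2 and 0.055 without IFNγ replicate 2, and at 500 nM it was 0.0873 to 0.0987 without IFNγ+ABBV-744 500 nM replicate 1 or 3, or without IFNγ replicate 2 or 3. Both calls were also lost with DESeq2. Of the 11 alternatives that kept all libraries, 8 kept the call at 50 nM and 7 that at 500 nM.

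SNHG7, on chromosome 9 at 136721366-136728184, hosts H/ACA snoRNAs of the SNORA17 and SNORA43 type. It measured 26.0, 34.7 and 32.2 CPM with IFNγ and 29.1, 20.05 and 20.8 CPM with 50 nM of ABBV-744 added. The first of the treated libraries lay inside the range of the controls, and the log2 fold change was -0.38 (-0.70 to -0.07, edgeR adjusted p = 0.0389). The call was lost without IFNγ+ABBV-744 50 nM replicate 2 (-0.30, 0.157) or 3 (-0.32, 0.123) and without IFNγ replicate 2 (-0.29, 0.181) or 3 (-0.37, 0.082). DESeq2 did not call it either, and the call held under 6 of the 11 alternatives that kept all libraries. In the other inhibitor comparisons SNHG7 was not called, at -0.29 to 0.16, but with 500 nM of ABBV-744 added to IFNγ it was called without IFNγ replicate 1 (-0.40, 0.047).

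SNHG3, on chromosome 1 at 28505980-28510892, hosts the abundant H/ACA snoRNAs SNORA73A and SNORA73B, and its gene lies inside that of RCC1 on the same strand. With IFNγ it measured 57.7, 60.5 and 71.4 CPM, and with 500 nM of ABBV-744 added 48.1, 54.4 and 52.5 CPM. The groups did not overlap, with a log2 fold change of -0.31 (-0.56 to -0.06, edgeR adjusted p = 0.0354), but leaving out any of the 3 treated libraries or IFNγ replicate 2 or 3 took the adjusted p to between 0.0527 and 0.173. It also missed the threshold with DESeq2 (0.143), its size factors (0.0542), library size alone (0.0709), no filter (0.0592) and all 24 libraries in the fit (0.0712). With ABBV-075 added to IFNγ the values were 47.7, 53.6 and 57.0 CPM, below every IFNγ library by a narrow margin, at -0.28 and an adjusted p of 0.0515. Leaving out IFNγ+ABBV-075 50 nM replicate 3 (adjusted p = 0.0384) or IFNγ replicate 1 (0.0296) made this a call.

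Among the box C/D hosts, ZFAS1, on chromosome 20 at 49278178-49299600, was the one of the 9 genes that rose with an inhibitor when all libraries were used. It hosts SNORD12, SNORD12B and SNORD12C. Its level was 84.0, 77.8 and 68.1 CPM with IFNγ and 98.9, 100.1 and 81.7 CPM with ABBV-075 added. The third treated library lay within the IFNγ range while the others stood above it, for a log2 fold change of 0.27 (0.04 to 0.50, edgeR adjusted p = 0.0388). The call was lost without IFNγ+ABBV-075 50 nM replicate 1 (0.25, 0.0844) or 2 (0.21, 0.185) and without IFNγ replicate 2 (0.28, 0.0847) or 3 (0.18, 0.232). In the other inhibitor comparisons ZFAS1 stayed within -0.03 to 0.06, and with ABBV-075 alone its 95% interval was -0.24 to 0.27.

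GAS5, on chromosome 1 at 173858559-173868882, hosts a series of box C/D snoRNAs and is known to accumulate when growth stops. It measured 72.6, 60.5 and 63.1 CPM with IFNγ and 53.8, 50.3 and 54.0 CPM with 50 nM of ABBV-744 added. The treated libraries were the lower in all 3 cases, at -0.30 (-0.53 to -0.07, edgeR adjusted p = 0.0235), with the call lost without IFNγ+ABBV-744 50 nM replicate 2 (-0.28, 0.063) or IFNγ replicate 1 (-0.21, 0.121). It was also lost with DESeq2, and held under 9 of the 11 alternatives that kept all libraries. With 500 nM of ABBV-744 alone its values of 49.3, 60.6 and 54.6 CPM lay below the DMSO values of 62.0, 67.1 and 63.2 CPM without a call, at -0.22 and an adjusted p of 0.206.

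SNHG1, on chromosome 11 at 62851978-62855953, had the highest DMSO level per kb of annotated exon, though close to SNHG3 with the longest transcript as length. It carries the box C/D snoRNAs SNORD22 and SNORD25 to SNORD31. It measured 82.6, 93.4 and 88.9 CPM with IFNγ and 72.5, 70.1 and 66.6 CPM with 500 nM of ABBV-744 added. All treated libraries lay below all controls, at -0.36 (-0.58 to -0.15, edgeR adjusted p = 0.00601), and the call was not lost when any single library was dropped. At 50 nM of ABBV-744 with IFNγ the values of 82.0, 71.4 and 85.2 CPM overlapped the controls, at -0.14 (-0.34 to 0.07).

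SNHG5 and SNHG6 were not called in any of the 6 inhibitor comparisons. SNHG5, on chromosome 6 at 85650491-85678932 and host of SNORD50A and SNORD50B, measured 45.5, 47.7 and 43.7 CPM with DMSO and 37.4, 34.0 and 38.7 CPM with 50 nM of ABBV-744. SNHG6, on chromosome 8 at 66920561-66926398 and host of SNORD87, measured 17.0, 21.6 and 19.6 CPM with DMSO and 16.3, 10.3 and 13.9 CPM with 50 nM of ABBV-744. In both genes these groups did not overlap, but the log2 fold changes of -0.30 and -0.51 had adjusted p values of 0.102 and 0.0637. SNHG6 has the fewest counts of the tested genes, 33 to 97 per library, and the interval at that comparison was -0.90 to -0.11. Without ABBV-744 50 nM replicate 1 SNHG6 was called, at -0.66 (adjusted p = 0.0283). SNHG5 was called higher with 50 nM of ABBV-744 added to IFNγ without IFNγ replicate 1, at 0.32 (0.0375), against 0.19 with all libraries.

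Fold changes moved with the GC content of the longest annotated transcript in several comparisons, and the host genes differ in it, from 39.0% for SNHG8 and 39.2% for GAS5 to 56.6% for SNHG12 and 65.9% for SNHG7, with a median near 47.5% over all genes. For SNHG8 that transcript takes 6166 of the 6614 bases of the gene. Its GC content, and so the corrected values below, may not be those of the RNA that was counted. Over 11093 genes, log2 fold change and GC content had a Pearson r of -0.28 with ABBV-075. The r was 0.53 at 50 nM and 0.30 at 500 nM of ABBV-744, 0.16 with IFNγ, and, with IFNγ present, -0.32 with ABBV-075, -0.64 with 50 nM and -0.50 with 500 nM of ABBV-744. The genes of one comparison share their libraries, and the part of this trend in each result was not tested. With a GC correction, the fall of SNHG8 was -1.20 with ABBV-075 and -1.42, -1.37 and -1.08 with the 3 treatments added to IFNγ, all still called, but it was -0.10 (adjusted p = 0.64) and -0.28 (0.0667) with ABBV-744 alone. The same correction ended the calls of SNHG12 (-0.12 and -0.14) and SNHG7 (-0.09) and that of SNHG3 (-0.19), kept that of SNHG1 (-0.57) and of ZFAS1 (0.41), and moved GAS5 to -0.95. Under it GAS5 was also called with ABBV-075 alone (-0.37, adjusted p = 0.0119), with ABBV-075 added to IFNγ (-0.62, 2.13e-06) and with 500 nM of ABBV-744 added to IFNγ (-0.62, 1.14e-05). SNHG5 and SNHG6 were then called lower with ABBV-075 added to IFNγ (-0.26 and -0.45) and with 500 nM of ABBV-744 added (-0.35 and -0.61), and SNHG5 also with 50 nM (-0.33). SNHG1 was then called with ABBV-075 (-0.21) and 50 nM of ABBV-744 (-0.46) added to IFNγ.

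The inhibitors were compared with each other at their matched dose of 50 nM in 2 pairs, one without and one with IFNγ, with p-values adjusted over all genes of a pair. Without IFNγ, SNHG8 was lower with ABBV-075 (33.9, 41.3 and 40.6 CPM) than with ABBV-744 (50.8, 55.2 and 50.4 CPM). The groups did not overlap, at a log2 fold change of -0.45 (-0.77 to -0.13, edgeR adjusted p = 0.0311). SNHG5 was higher with ABBV-075, at 53.7, 47.8 and 46.3 CPM against 37.4, 34.0 and 38.7 CPM, at 0.41 (0.09 to 0.74, adjusted p = 0.0432). These are 2 of 9 genes, where 40.8% of all genes were called, 19.4% lower and 21.4% higher. When any single library other than ABBV-075 50 nM replicate 3 was dropped, both adjusted p values were above 0.05, up to 0.108 for SNHG8 and 0.14 for SNHG5, and the GC correction gave -1.09 for SNHG8 and -0.10 for SNHG5. The intervals of the other 7 genes ran from -0.62 to 0.82, so differences of that size between the inhibitors could not be told from 0 here.

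With IFNγ present, SNHG8 gave 36.5, 41.9 and 32.9 CPM with ABBV-075 and 37.0, 42.9 and 48.4 CPM with ABBV-744. The groups overlapped, and the difference of -0.15 had an interval of -0.42 to 0.11. ZFAS1 was higher with ABBV-075, at 98.9, 100.1 and 81.7 CPM against 73.5, 77.1 and 78.6 CPM, at 0.34 (0.14 to 0.55, edgeR adjusted p = 0.00743). SNHG12 was also higher, at 24.1, 28.6 and 28.3 CPM against 20.2, 18.6 and 23.2 CPM, at 0.43 (0.11 to 0.74, adjusted p = 0.0306). In neither gene did the groups overlap, and 33.7% of all genes were called, 16.7% higher. Scaling by library size alone ended both calls (0.22, adjusted p = 0.107 and 0.30, adjusted p = 0.125). Without IFNγ+ABBV-075 50 nM replicate 2 the adjusted p of ZFAS1 was 0.0649, without IFNγ+ABBV-744 50 nM replicate 1 it was 0.0509, and that of SNHG12 was 0.0916 to 0.119 without IFNγ+ABBV-075 50 nM replicate 2 or 3 or IFNγ+ABBV-744 50 nM replicate 1 or 2. SNHG7 (0.40, adjusted p = 0.0537) and GAS5 (0.22) were called without IFNγ+ABBV-075 50 nM replicate 1, at 0.57 and 0.35, and SNHG7 also without IFNγ+ABBV-744 50 nM replicate 1, at 0.60.

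Between 500 and 50 nM of ABBV-744 edgeR called none of the 9 genes and 0.0274% of all genes, which is 3 genes. An unadjusted p under 0.05 in edgeR was found for 0 of the 9, and DESeq2 called 0 of them and 5 of 16127 genes. SNHG5 was higher at 500 nM without overlap, at 41.8, 43.3 and 44.5 CPM against 37.4, 34.0 and 38.7 CPM, at 0.23 (-0.07 to 0.52, edgeR adjusted p = 0.813). The intervals of the 9 genes ran from -0.45 to 0.55, so differences within that range could not be told from 0 here. SNHG8 differed by -0.04 with an interval of -0.32 to 0.23. The effect of ABBV-075 with IFNγ minus that without it was called in edgeR for none of the host genes and for 0.0347% of all genes. Of the host genes 0 had an unadjusted p under 0.05 in edgeR and 0 were called by DESeq2, and for SNHG8 the difference was -0.09 (-0.48 to 0.31). The same differences for ABBV-744 were fitted after the data had been seen. At 50 nM, SNHG5, SNHG6, SNHG7 and SNHG12 passed the threshold, 4 of 9 against 51.6% of all genes, and at 500 nM 0 of 9 did against 33.5%, with 3 of them at an unadjusted p under 0.05 and 0 called by DESeq2.

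The snoRNAs inside these hosts were counted as genes of their own, and 34 of 37 listed guests were in the files. Intronic snoRNAs are short and stable, and reads from several near-identical copies can be lost or split, so their counts are less certain than those of the hosts. With ABBV-075 alone 3 of 23 tested guests fell and none rose, 13.0% against 39.3% of all genes called. With 50 nM of ABBV-744 2 of 23 rose, 8.70% against 18.9%. No guest was called with 500 nM of ABBV-744 at 22 tested, against 15.3% of all genes, or with IFNγ alone at 24 tested, against 3.46%. With IFNγ present, 2 guests rose and 3 fell with ABBV-075, 12 of 24 fell with 50 nM of ABBV-744 and 5 of 23 fell with 500 nM. The shares called were 22.7% against 56.6% of all genes, 50% against 51.7% (24.3% lower), and 21.7% against 45.7% (22.8% lower), so the guests called at 500 nM are near the share of all genes called lower.

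SNORA24, the guest of SNHG8, measured 131.4, 108.8 and 122.9 CPM with DMSO and 66.9, 85.4 and 102.8 CPM with ABBV-075. It fell with its host, without overlap, at -0.53 (-0.87 to -0.19, edgeR adjusted p = 0.018). With IFNγ it measured 89.4, 144.2 and 102.5 CPM, and with ABBV-075 added 97.1, 157.5 and 137.7 CPM. Here the guest was not called, at 0.21 (-0.07 to 0.48), in the comparison in which SNHG8 fell by 0.94 on the log2 scale. With ABBV-744 added to IFNγ the guest was at -0.36 (adjusted p = 0.015) at 50 nM and at 0.26 (-0.01 to 0.53) at 500 nM.

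SNORA73A, a guest of SNHG3, measured 2991.0, 4335.4 and 3837.6 CPM with IFNγ and 3971.8, 5396.9 and 4857.3 CPM with ABBV-075 added, levels far above those of its host. The groups overlapped, and the fold change of 0.33 was called (edgeR adjusted p = 0.00325), as was that of SNORA73B at 0.36 (0.000676), while SNHG3 was at -0.28. With 50 nM of ABBV-744 added to IFNγ both were lower, at -0.34 (0.00185 and 0.000888), and with 50 nM of ABBV-744 alone both were higher, at 0.38 (0.025) and 0.33 (0.0423). The GC correction ended these calls of ABBV-744.

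No guest of ZFAS1 was called without IFNγ, and with ABBV-075 added to IFNγ 2 of its 3 guests were called lower. The difference between guest and host was not tested. SNORD12 measured 22.2, 15.3 and 15.8 CPM with IFNγ and 10.9, 12.8 and 9.0 CPM with ABBV-075 added, at -0.72 (edgeR adjusted p = 0.00412). All treated libraries lay below the controls, where ZFAS1 was at 0.27. SNORD12C was at -0.68 (0.00447) and SNORD12B at -0.24 without a call. With either dose of ABBV-744 added to IFNγ all 3 guests were called lower, SNORD12 by 0.75 and 0.77 and SNORD12C by 0.55 and 0.67 on the log2 scale. SNORD74, a guest of GAS5, had 9.7, 7.3 and 8.1 CPM with IFNγ and 3.5, 3.5 and 3.0 CPM with ABBV-075 added, at -1.33 (-1.93 to -0.73, adjusted p = 0.000217), beside -0.15 for GAS5. SNORD74 also fell by 0.88 and 1.00 with 50 and 500 nM of ABBV-744 added. With ABBV-075 alone the GAS5 guests SNORD47 (-0.86, 0.0439) and SNORD80 (-0.72, 0.0158) fell, where GAS5 was at -0.04.

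**Figure D4:**
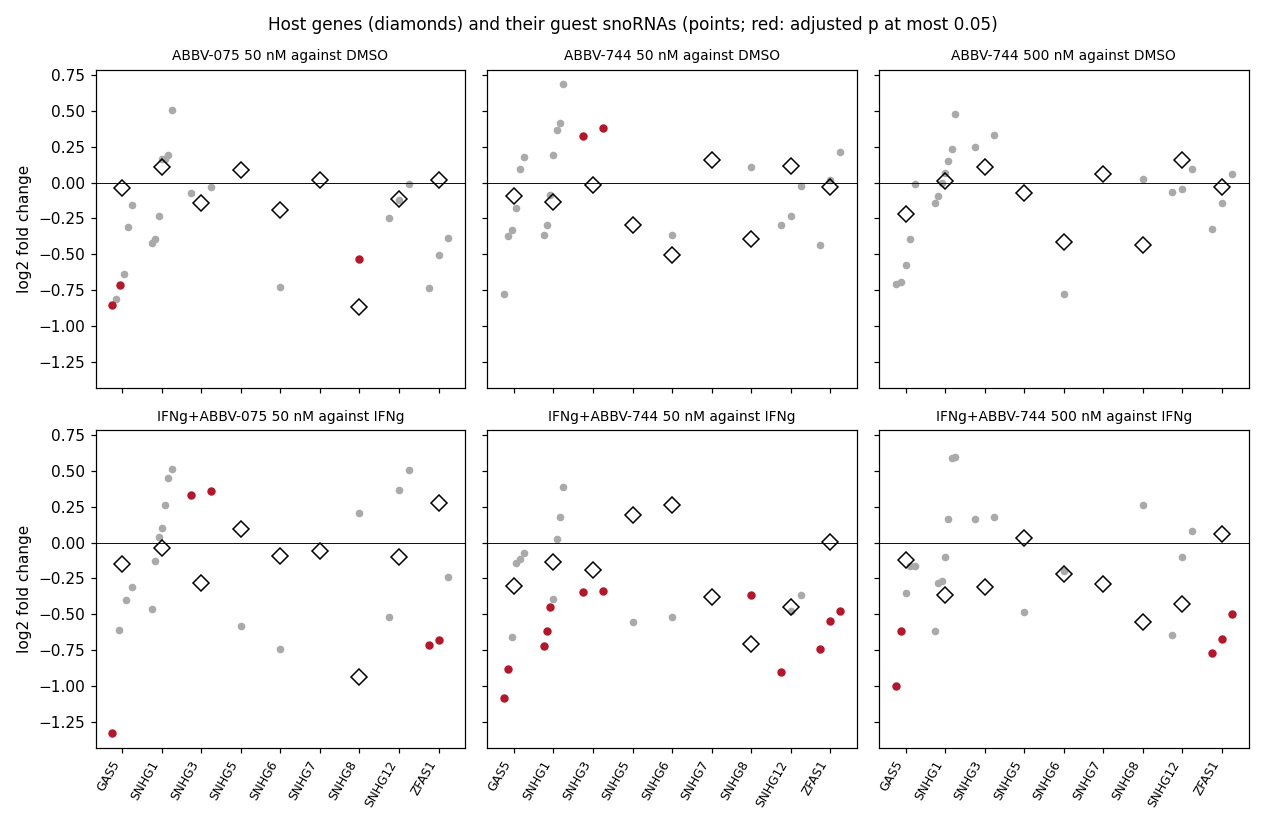
Log2 fold changes of the 9 host genes (diamonds) and of their tested guest snoRNAs (points, red at an adjusted p of at most 0.05) in the 6 inhibitor comparisons, placed over the symbol of the host. SNORA24 lies at -0.53 with ABBV-075 and at 0.21 with IFNγ and ABBV-075, while SNHG8 lies at -0.87 and -0.94.

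Genes that start next to a host, or overlap one, are set beside it here, and the difference between neighbour and host was not tested. ZNFX1, which starts 248 bases from ZFAS1 on the other strand, measured 122.1, 112.9 and 121.2 CPM with DMSO and 222.9, 234.1 and 263.4 CPM with IFNγ. It rose by 1.02 (0.85 to 1.19, edgeR adjusted p = 2.82e-12), while ZFAS1 was at -0.07 (-0.28 to 0.13). SLC3A2, which starts 51 bases from SNHG1 on the other strand, fell by 0.50 with ABBV-075 (0.0201), where SNHG1 was at 0.11, and by 0.90, 0.70 and 0.80 with ABBV-075 and with 50 and 500 nM of ABBV-744 added to IFNγ. In these SNHG1 was at -0.03, -0.14 and -0.36, the last of which was called, and all 3 were called with the GC correction. ZBTB37, which starts 800 bases from GAS5, rose by 1.08 with ABBV-075 (0.00755), from 3.5, 4.0 and 4.5 CPM to 9.6, 6.6 and 9.6 CPM. RCC1, which holds SNHG3 within it on the same strand, was at -0.49, -0.68 and -0.70 with the 3 treatments added to IFNγ, the first of which was not called with the GC correction, and reads of the shared stretch cannot be split between them. PRSS12, opposite SNHG8, was at 0 in 22 of 24 libraries.

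Other genes of the same machinery were read from lists. Of 15 other non-coding snoRNA hosts in the files, 11 were tested with ABBV-075 and 5 fell, 45.5% against 39.3% of all genes called and 19.6% called lower, at a median of -0.36 on the log2 scale, beside 0.03 for all genes. DANCR fell from 97.3 ± 2.04 to 46.0 ± 2.30 CPM (SD, n = 3), at -1.10 (edgeR adjusted p = 4.77e-05), SNHG16 from 412.4 ± 24.5 to 242.6 ± 22.4 CPM, at -0.79 (0.000276), and SNHG10 from 14.9 ± 0.323 to 5.89 ± 2.02 CPM, at -1.34 (0.00131). With ABBV-075 added to IFNγ, 7 of 10 fell and 1 rose, against 28.4% and 28.2% of all genes, at a median of -0.88, with DANCR at -1.42 and SNHG16 at -1.08. With ABBV-744 alone SNHG10 was the gene called among 10, at -0.63 with 50 nM and -0.68 with 500 nM. This is 10% called lower at each dose, near the 10.1% and 7.8% of all genes called lower. With IFNγ present 4 of 10 fell at 50 nM and 2 of 9 at 500 nM, DANCR and SNHG16 at both. All genes were called lower at 24.3% and 22.8% there, and the 2 of 9 (22.2%) are near that share. With IFNγ alone none of 10 tested was called, where 3.46% of all genes were called.

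The protein-coding hosts were split in direction. With ABBV-075, 3 of 23 rose and 5 fell, 34.8% called against 39.3% of all genes, among them IPO7, a nuclear import receptor, at 0.90 (edgeR adjusted p = 0.000888) and SF3B3, a splicing factor subunit, at -0.65 (0.00192). With ABBV-075 added to IFNγ 7 rose and 8 fell, with 50 nM of ABBV-744 added 10 rose and 7 fell, and with 500 nM 8 rose and 8 fell, which is 65.2%, 73.9% and 69.6% called against 56.6%, 51.7% and 45.7% of all genes. The GC correction changed these to 4 and 11, 3 and 8, and 4 and 8. SF3B3 fell in all 3, by 1.14, 0.73 and 0.85 on the log2 scale.

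Of 17 genes for proteins of the snoRNA particles, 9 fell and none rose with ABBV-075, 52.9% called against 39.3% of all genes and 19.6% called lower, at a median of -0.31. RUVBL1, a helicase of particle assembly, was at -1.22 (edgeR adjusted p = 0.00231), GAR1 and NHP2, core proteins of H/ACA particles, at -0.93 (0.018) and -0.72 (0.00277), and FBL, the methyltransferase of box C/D particles, at -0.54 (0.00404). With IFNγ, 10 of 17 fell with ABBV-075, 6 with 50 nM and 9 with 500 nM of ABBV-744, and 2 rose in each, where 28.4%, 24.3% and 22.8% of all genes were called lower. RUVBL1 was at -1.61, -1.64 and -1.78 in these, and with 50 nM of ABBV-744 alone 1 rose and 1 fell, 11.8% called against 18.9% of all genes.

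**Figure D5:**
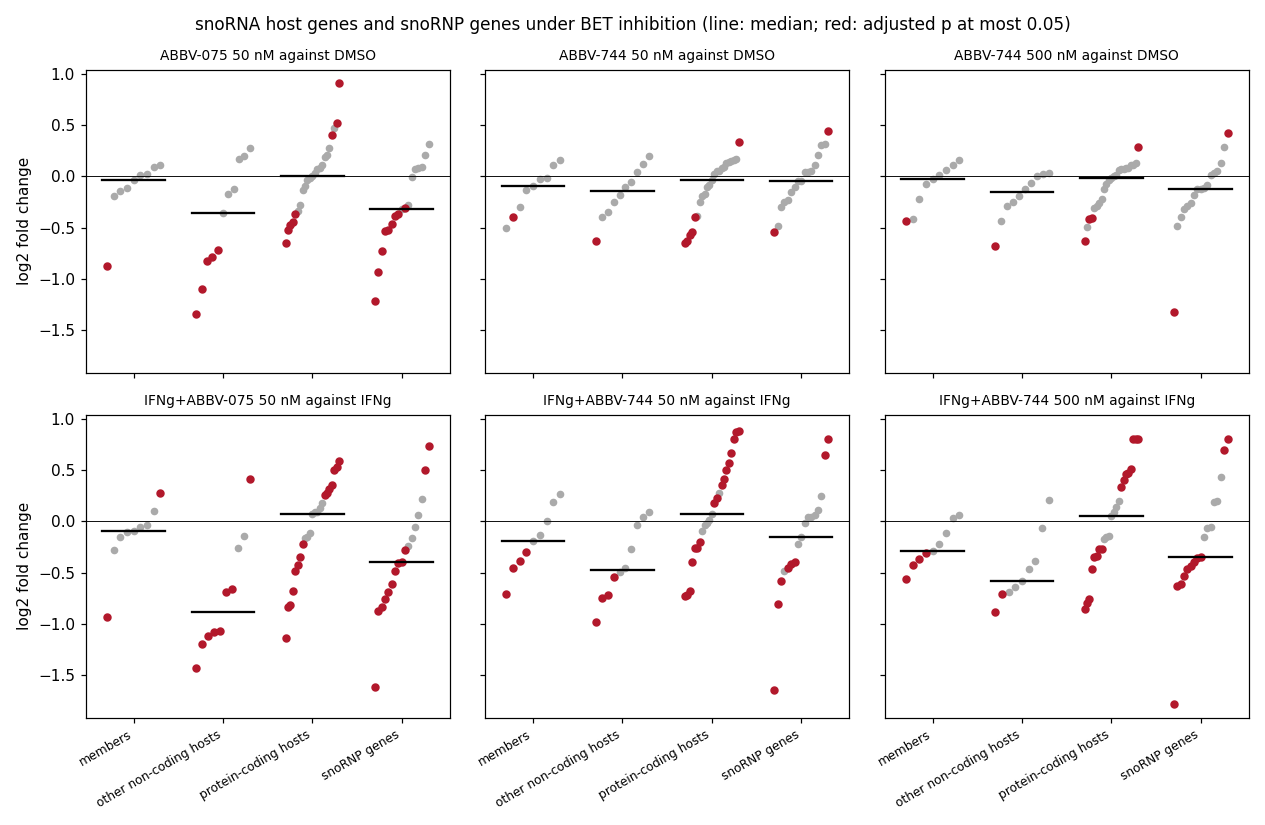
Log2 fold changes of the 9 host genes, of other non-coding snoRNA hosts, of protein-coding snoRNA hosts and of snoRNA particle (snoRNP) genes in the 6 inhibitor comparisons. Points are genes, red at an adjusted p of at most 0.05, and lines are medians. With ABBV-075 the medians are -0.04, -0.36, 0.00 and -0.31, and with IFNγ and ABBV-075 they are -0.09, -0.88, 0.07 and -0.40.

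Further lists describe how such transcripts start and decay. Among 18 nonsense-mediated decay factors, 6 rose and none fell with ABBV-075, 33.3% called against 39.3% of all genes and 19.8% called higher, led by PNRC2 at 0.95 (edgeR adjusted p = 0.00268) and EIF4A3 at 0.65 (0.000696), and with ABBV-075 added to IFNγ 8 rose and 3 fell, 61.1% called against 56.6%. With 50 nM of ABBV-744 added to IFNγ 7 rose and 2 fell, 50% called against 51.7%, or 1 and 2 after the GC correction. Of 16 translation factors with TOP mRNAs, 1 rose and 2 fell with ABBV-075, PABPC1 at 0.62 (0.00141) and EIF4B at -0.56 (0.00144) among them, 18.75% called against 39.3% of all genes. With ABBV-744 alone 3 rose and 5 fell at 50 nM, 50% against 18.9%, and 2 rose and 3 fell at 500 nM, 31.25% against 15.3%. With IFNγ present 62.5%, 75% and 56.25% were called against 56.6%, 51.7% and 45.7%, for ABBV-075 and for 50 and 500 nM of ABBV-744. Of 85 cytosolic ribosomal protein genes, whose mRNAs share the pyrimidine start, 13 fell and 1 rose with ABBV-075 at a median of -0.13, and 45 fell and 5 rose with ABBV-075 added to IFNγ at a median of -0.21. These are 16.5% called against 39.3% of all genes (19.6% lower), and 58.8% against 56.6% (28.4% lower). With ABBV-744 added to IFNγ 40 fell and 5 rose at 50 nM, and 47 fell and 4 rose at 500 nM. The shares called were 52.9% against 51.7% of all genes (24.3% lower), and 60% against 45.7% (22.8% lower). With 50 nM of ABBV-744 alone 10 rose and 1 fell, 12.9% called against 18.9% of all genes (8.81% higher). Scaling by library size alone, which moves the median of all genes by -0.10, gave 0 and 8.

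The profiles of the host genes over the 8 group means were not alike. The 36 pairs had Pearson r from -0.57 to 0.91 with a median of 0.25, over 8 points that share libraries and depth. Among 9368 genes whose log2 CPM averaged 3 or more, the mean profile of the 9 genes was most like those of COQ7 (r = 0.958), PCGF1 (0.940), POLB (0.938), SNORD31 (0.927) and DAZAP2 (0.922), and SNORD31 is a guest of SNHG1. The profile of SNHG8 alone, looked at after its values had been seen, was most like those of ETS2 (0.989), SGK1 (0.988), EVA1A (0.982), PSMD11 (0.982) and MYC (0.982). By Spearman's rho, 3 of the first 5 and 2 of the second 5 stayed among the top 5, so the ranking depends on the measure. MYC, a transcription factor known to respond to BET inhibitors, fell by 0.73 with ABBV-075 and was at -0.19 without a call at 50 nM of ABBV-744.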

How the data were processed

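RNA of 24 HepG2 libraries, 3 in each of 8 groups, was depleted of ribosomal RNA and sequenced with a kit that keeps the strand. Per the study's methods and the submitters' processing notes, the authors used CASAVA 1.8.2, Trimmomatic 0.33 and STAR 2.7.1 on hg38, and the annotation behind the counting is not given in the sources used here. The authors deposited raw read counts per gene, unstranded and for each strand, and the column that held 98.3 to 98.5% of the stranded counts was taken as sense. Reads that mapped to several places were left out by that counting, which lowers the counts of repeated snoRNAs. Rows that name no gene stayed out of library sizes: multimapping reads were 56.0 to 69.4% and reads on no feature 14.8 to 25.3% of all reads.

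Samples were grouped by their labels. Each comparison was fitted on its own libraries with edgeR 4.0.16 (quasi-likelihood, TMM scaling, filterByExpr) in R 4.3.3, and p-values were adjusted by Benjamini-Hochberg over all genes tested, with calls at 0.05 and 95% intervals. Log2 CPM for profiles used a prior count of 2. The alternatives were DESeq2 1.42.0, its size factors, library size alone, no filter, a minimum of 10 counts per gene and library, 1 fit over the 24 libraries, a replicate block, unstranded counts, no top 10 genes, a GC correction (lowess span 0.3) with and without the block, and each library left out. The code was tested on simulated data. Tables and plots used Python 3.11.15, pandas 2.3.3, scipy 1.17.1 and matplotlib 3.10.9.

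The members and lists were chosen with earlier results of these data known. The 10 host genes were all named. From each list at most 4 genes a comparison were named, those called, without overlap and of largest absolute log2 fold change, together with guest snoRNAs, neighbouring genes, treatment checks and the 5 genes most like the mean host profile. Coordinates are GENCODE 44 on GRCh38, and 23161 symbols matched it directly and 1430 through a RefSeq synonym.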

Additional observations from a re-analysis of the deposited data

Results flagged for a closer look

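The effect of 50 nM of ABBV-744 with IFNγ minus its effect without IFNγ, a difference fitted after the data had been seen, was past the threshold for 4 of the 9 host genes, where 51.6% of all genes were called. It was 0.46 for SNHG5 (SE 0.175, edgeR adjusted p = 0.0304) and 0.74 for SNHG6 (SE 0.251, adjusted p = 0.0155). These 2 genes were at -0.30 and -0.51 with ABBV-744 alone and at 0.19 and 0.26 when it was added to IFNγ, and none of those 4 values was called. The difference was -0.57 for SNHG7 (SE 0.235, adjusted p = 0.0430) and -0.60 for SNHG12 (SE 0.211, adjusted p = 0.0197), which were at 0.16 and 0.11 without IFNγ and at -0.38 and -0.45 with it.

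Over 11285 genes this difference and GC content had a Pearson r of -0.73. With the GC correction 2331 of all 11451 genes were called in place of 5905, and none of the 4 was called, at -0.27 for SNHG5, 0.0003 for SNHG6, 0.0060 for SNHG7 and -0.04 for SNHG12, while SNHG8 moved from -0.34 (adjusted p = 0.0795) to -1.27. Leaving out 1 of 12 libraries ended the call of SNHG5 in 5 fits (0.36 to 0.43), of SNHG6 in 1 (0.58, without ABBV-744 50 nM replicate 2), of SNHG7 in 8 (-0.60 to -0.45) and of SNHG12 in 3 (-0.53 to -0.49). The part of GC content and of single libraries in the difference was not tested.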

How the results depend on the processing

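The fall of SNHG8 with ABBV-075, alone or added to IFNγ, was called under all alternatives. The cause was not tested for any value that follows. Replicate numbers did not pair the samples: the correlations of deviations over 30 pairs ran from -0.195 to 0.386, no comparison had all above 0.1, and in 1 comparison (500 against 50 nM of ABBV-744) every sample correlated best with its own number, and there the replicate block called 320 of all genes against 3 without it, and none of the host genes. Counts of host genes called are given as the alternative beside the value used. With the GC correction, with and without the replicate block alike, lower calls were 2 against 1 for ABBV-075, 0 against 1 for either dose of ABBV-744 and 2 against 1 for ABBV-075 against ABBV-744, where higher calls were 0 against 1. For ABBV-075 added to IFNγ lower calls were 5 with the GC correction, 4 with the GC correction and replicate block, and 2 with the replicate block alone, at least 10 counts, or unstranded counts, against 1. The replicate block alone gave 0 higher calls against 1 for ABBV-075 against ABBV-744. DESeq2 gave 0 higher against 1 for ABBV-075 added to IFNγ, 1 and 2 lower against 4 for 50 and 500 nM of ABBV-744 added to IFNγ, 0 against 1 in both directions for ABBV-075 against ABBV-744, and 1 higher against 2 for that pair with IFNγ. Library size alone gave 2 lower against 1 for 50 nM of ABBV-744, 2 against 4 for each dose added to IFNγ, 0 lower against 1 for the pair, and 0 higher against 2 for the pair with IFNγ. For the pair, no filter gave 0 against 1 in both directions and all 24 libraries gave 2 higher, and for the pair with IFNγ all 24 libraries gave 1 higher against 2. For the added difference at 50 nM of ABBV-744, the GC correction with and without the block gave 0 higher against 2, and lower calls were 0 with DESeq2 or library size alone and 1 with DESeq2 size factors or all 24 libraries, against 2. At 500 nM, lower calls were 3 with the GC correction, with and without the block, and 1 without the top 10 genes, against 0.

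Leaving out 1 library gave 0 to 2 lower calls at 50 nM and 0 to 1 at 500 nM of ABBV-744, 0 to 1 higher and 1 to 2 lower for ABBV-075 added to IFNγ, 0 to 1 higher and 1 to 4 lower at 50 nM and 2 to 5 lower at 500 nM of ABBV-744 added to IFNγ, 0 to 1 in both directions for the pair, 0 to 4 higher for the pair with IFNγ, and 0 to 2 in both directions and 0 to 3 lower for the added differences at 50 and 500 nM. Signs of single genes changed under the GC correction, with a library left out, and for SNHG1 and SNHG6 also under other alternatives. With a library left out GAS5 ranged from -0.107 to 0.00742 with ABBV-075 and from -0.0035 to 0.131 in the pair, where it went to -0.55 (-0.54 with the block) under the GC correction, and to -0.56 under both GC fits in the difference at 500 nM. SNHG1 ranged from -0.0838 to 0.000508 with ABBV-075 added to IFNγ when a library was left out, and went to -0.0582 and -0.053 under the GC fits in the pair, and, in the difference at 50 nM, to 0.0324 with DESeq2, 0.0291 with its size factors, 0.16 with library size alone, 0.0037 with no filter and -0.0783 to 0.0626 with a library left out. SNHG5 went to -0.26 (GC, with and without block) and -0.0045 to 0.222 (a library left out) with ABBV-075 added to IFNγ, to -0.33 with 50 nM and -0.35, -0.34 and -0.0578 to 0.169 with 500 nM of ABBV-744 added (GC, GC with block, a library left out), to -0.10 and -0.0942 in the pair and to -0.27 in the difference at 50 nM. SNHG6 went from -0.22 to 0.0905 with unstranded counts at 500 nM added to IFNγ and to -0.0073 under GC with block in the difference at 50 nM, and SNHG7 there to 0.0060. SNHG6, SNHG12 and SNHG7 had the fewest counts, at 33 to 97, 62 to 123 and 71 to 127 per library.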
